A study of Macaca fascicularis and Macaca mulatta and Papio anubis with 20 samples.

Results

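The ATP-gated P2X receptors were followed through spatial transcriptomes of non-human primate dorsal root ganglia, which house the cell bodies of the sensory neurons that report touch, position, temperature and pain. The set was defined by symbol as P2RX2, P2RX3, P2RX4, P2RX5, P2RX6 and P2RX7, which makes 6 genes. The annotation used for Macaca fascicularis gave a symbol to 5 of the 6, among 22000 features; P2RX3 was the member without one. The annotation of the sections labelled Macaca mulatta named 4 of the 6 among 20842 features, without P2RX5 and P2RX6, and that of the sections labelled Papio anubis named all 6 among 21369 features.

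P2X receptors are cation channels built from 3 subunits that open when extracellular ATP binds. In sensory ganglia P2X3 is the best known of them: nociceptors carry it as a homomer and together with P2X2, and ATP released from damaged tissue excites their endings through it. P2X4 and P2X7 are best known from microglia and macrophages, where P2X4 resides largely in lysosomes and P2X7 drives release of interleukin-1β. P2X5 and P2X6 give little or no current on their own in most species, and P2X6 is known mainly as a partner in mixed channels with P2X2 or P2X4.

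The series comprised 20 Visium sections, in which polyadenylated RNA is captured on an array of barcoded spots under a stained tissue section and counted as unique molecular identifiers (UMIs). Fresh frozen ganglia, bought from a commercial supplier, were cut at 10 µm with sections 100 µm apart and permeabilised for 12 min. The labels give no treatment, genotype, age or spinal level. M. fascicularis contributed 4 groups of 4 sections, namely females of batch 1, males of batch 1, females of batch 2 and males of batch 2, and each group carried a single animal or tissue code. Sections of one code were therefore counted as 1 specimen, so that each combination of sex and batch rested on 1 specimen. A further 2 sections were labelled M. mulatta and 2 P. anubis, all of batch 2 and with no sex given. Gene identifiers began with the prefix for P. anubis genes where the label read M. mulatta, and with the M. mulatta prefix where it read P. anubis, so the species of these 4 sections is given below only as labelled.

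The M. fascicularis sections held 1136433 to 7073134 UMIs each, with a median of 398 to 5145 UMIs per tissue spot. The 2 sections labelled M. mulatta were shallow, with 190376 and 264661 UMIs and medians of 61 and 62 per spot, and those labelled P. anubis held 595020 and 12595205 UMIs. A list of neuronal genes summed to 21781 to 32887 CPM (UMI counts scaled to a common total per section) in the M. fascicularis sections, to 6590 to 15154 in those labelled M. mulatta and to 26229 to 38509 in those labelled P. anubis. A spot covers several cells or parts of cells, and in such data fewer cells of a type and less RNA per cell cannot be told apart. Because reads were taken from transcript ends and not scaled by length, levels are compared between samples and not between genes.

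P2RX4 (ENSMFAG00000041150) was detected in all 16 M. fascicularis sections, with 2231 UMIs in all. Its level was 36.7, 34.9, 32.5 and 29.1 CPM in the 4 female sections of batch 1. The male sections of batch 1 gave 33.4, 32.0, 29.3 and 31.0 CPM. In batch 2 the female sections gave 38.1, 50.8, 38.6 and 40.2 CPM and the male sections 28.6, 29.4, 37.5 and 41.4 CPM. Each female section of batch 2 was therefore above each section of batch 1, whereas the male sections of batch 2 overlapped with batch 1. The group means were 33.3 ± 3.25 and 31.4 ± 1.73 CPM in females and males of batch 1 and 41.9 ± 5.97 and 34.2 ± 6.24 CPM in those of batch 2 (SD over n = 4 sections of 1 specimen).

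P2RX6 (ENSMFAG00000042492) was likewise present in all 16 sections, with 1940 UMIs. The female sections of batch 1 gave 27.3, 36.7, 34.4 and 31.9 CPM and the male sections of batch 1 gave 29.3, 33.7, 24.2 and 43.4 CPM. In batch 2 the female sections gave 23.0, 29.1, 31.1 and 27.9 CPM and the male sections 14.6, 21.5, 23.2 and 41.4 CPM. The groups overlapped throughout, and the male sections of batch 2 held both the lowest and the second highest value of the 16. The means were 32.6 ± 4.02 and 32.6 ± 8.15 CPM in females and males of batch 1 and 27.8 ± 3.45 and 25.2 ± 11.4 CPM in those of batch 2 (SD, n = 4).

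The other members were scarce. P2RX7 (ENSMFAG00000032645) gave 87 UMIs in the 16 sections, 1 to 10 in each, and its group means lay between 0.97 ± 0.58 and 2.34 ± 1.77 CPM (SD, n = 4). P2RX5 (ENSMFAG00000038002) gave 2 UMIs, both in male sections of batch 1. P2RX2, the partner of P2X3 in mixed channels, had a symbol in each annotation and no UMI in any of the 20 sections. Over all M. fascicularis UMIs, a count of 0 allows a P2RX2 level of up to 0.0474 CPM (3 counts of the total, counting error only).

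**Figure D1:**
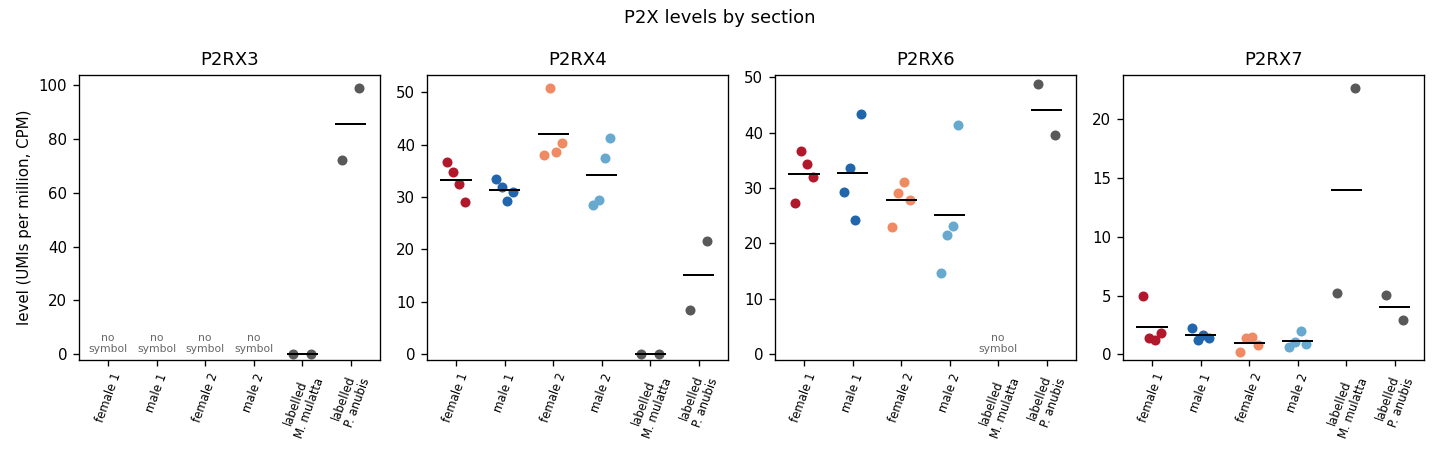
Level of P2RX3, P2RX4, P2RX6 and P2RX7 in each section, in CPM, by group (female 1 stands for M. fascicularis females of batch 1, and so on); points are sections, bars are group means, and a missing symbol is marked. P2RX4 and P2RX6 were present in all 16 M. fascicularis sections, and the sections labelled M. mulatta held no P2RX4 UMI.

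In the sections labelled P. anubis, P2RX3, the receptor of nociceptors, was the member with the most UMIs. It gave 43 and 1245 UMIs, or 72.3 and 98.8 CPM, and lay in 37 and 611 spots. P2RX6 gave 48.7 and 39.6 CPM there, P2RX4 8.40 and 21.7 CPM from 5 and 273 UMIs, and P2RX7 5.04 and 2.94 CPM. P2RX5 gave 2 UMIs, both in the deeper section. The sections labelled M. mulatta held no UMI of P2RX3 or P2RX4, which allows levels of up to 15.8 and 11.3 CPM in the 2 sections, whereas P2RX7 was counted 1 and 6 times, or 5.25 and 22.7 CPM.

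To set the labelled species side by side, levels were also scaled to the 13102 gene symbols that the 3 annotations share. On that scale P2RX4 was at 55.1 ± 10.4 CPM in M. fascicularis (SD, n = 16 sections), with a range of 43.9 to 82.3, at 0 in both sections labelled M. mulatta and at 15.3 and 40.1 in those labelled P. anubis. No section under either other label reached the lowest M. fascicularis section. P2RX7 was at 2.35 ± 1.57 CPM in M. fascicularis, with a range of 0.382 to 7.47. It was at 10.3 and 44.3 CPM under the M. mulatta label and at 5.43 and 9.16 CPM under the P. anubis label. The M. mulatta values rest on 1 and 6 UMIs, with 0 in spots of at least 200 UMIs. Over all features, the first of them has a counting interval of 0.133 to 29.3 CPM, so no direction is read from it. Annotation, depth and neuronal content differed between the labels as well, and with 1 code per label these cannot be told apart from species; no test was made.

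The batch and sex comparisons asked whether the members differed between the 2 batches and between female and male ganglia. None of the 3 members tested passed in either, at an adjusted p under 0.05. Both terms were estimated from the sums of 4 specimens, so a missing call does not show equal levels. For batch, edgeR's quasi-likelihood test on sums per specimen gave P2RX4 a log2 difference of 0.34 (SE 0.24, adjusted p = 0.499), P2RX6 one of -0.35 (SE 0.25, adjusted p = 0.515) and P2RX7 one of -0.56 (SE 0.56, adjusted p = 0.641), batch 2 over batch 1. Of 12650 genes, 2.88% were called between batches. For sex, the differences of females over males were 0.29, 0.22 and 0.10 for P2RX4, P2RX6 and P2RX7 (adjusted p = 0.998 for each). Here 0% of genes were called by edgeR and 0 by DESeq2, with 169 of 12650 genes at an unadjusted p under 0.05. The members had unadjusted p-values of 0.192 or more in both comparisons. With sections in place of specimens as samples, P2RX4 was called higher in batch 2 (0.34, adjusted p = 0.016), along with 4345 of 10670 genes called; sections of one specimen share their source. Marker lists of other cells also moved between batches. The group means of the summed immune list were 2803 and 2635 CPM in females and males of batch 1 and 1644 and 1382 CPM in those of batch 2. The fibroblast list went from 1835 and 1414 to 373 and 281 CPM and the Schwann list from 4954 and 4597 to 1682 and 2309 CPM. The adipocyte list was higher in batch 2, at 2523 and 4841 CPM against 1356 and 1266. The part of cell content in the batch values was not tested.

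The authors' deposited table gives Moran's I, a measure of how far neighbouring spots resemble one another, for each gene in each section. In that table P2RX6 passed the adjusted p of 0.05 in 4 of the 16 M. fascicularis sections, beside 16.2% of all gene and section pairs. The 4 values were 0.0548 and 0.0850 in female sections and 0.0412 and 0.0476 in male sections, all of batch 1. In these 4 sections 20.7%, 40.6%, 16.8% and 21.4% of all genes passed, in the same order. P2RX4 passed in none of the 16 in the authors' deposited table, with values from -0.0111 to 0.0231. In the deeper section labelled P. anubis the authors' deposited table lists P2RX3 at 0.0803, above 96.2% of the genes listed there. P2RX6 was at 0.0193 in it. Both passed, beside 22.6% of genes in that section and 14.1% of pairs under that label. Under the M. mulatta label 3.04% of pairs and no member passed. In the shallower section P2RX3 was at -0.0002 in the same table. All these values of Moran's I were small: no member reached 0.1 with an adjusted p under 0.05 in the authors' deposited table.

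To ask which tissue element each member followed, spots with at least 200 UMIs were ranked in each M. fascicularis section by the share of their UMIs on a list of marker genes. The top 25% of spots were then compared with the other spots over the 4 specimens, with the specimen as a block. No P2X gene is in any of the lists used to rank spots. This used 15 sections and 18594 spots; the spots of the male section 3 of batch 2 were not analysed here.

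P2RX6 was higher in spots rich in neuronal genes. With spots put in 4 equal bins from the lowest to the highest neuronal share, its level went from 8.15 through 27.3 and 31.8 to 40.4 CPM in the female of batch 1. In the male of batch 1 the 4 bins gave 12.1, 19.1, 32.6 and 43.1 CPM, and in the female of batch 2 they gave 10.2, 20.4, 24.4 and 32.2 CPM. The male of batch 2 gave 13.5, 14.7, 28.3 and 23.0 CPM, with its highest value in the third bin. The top bin was thus 4.96, 3.57, 3.14 and 1.70 times the bottom one. P2RX4 had no order common to the 4 specimens. In the males it went up over the bins, from 28.1 through 31.0 and 31.2 to 32.0 CPM in batch 1 and from 16.5 through 28.7 and 34.6 to 34.7 CPM in batch 2. In the females it was highest in the bottom bin, with 42.8, 34.5, 32.2 and 31.3 CPM in batch 1 and 56.3, 53.1, 39.0 and 41.4 CPM in batch 2. Its top bin was thus 0.73 and 0.74 times its bottom one in the females and 1.14 and 2.1 times in the males, from 11 UMIs in the bottom bin of the male of batch 2. Between sexes the difference of P2RX4 in neuron-rich against other spots was not called (-0.25, SE 0.18, adjusted p = 1).

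**Figure D2:**
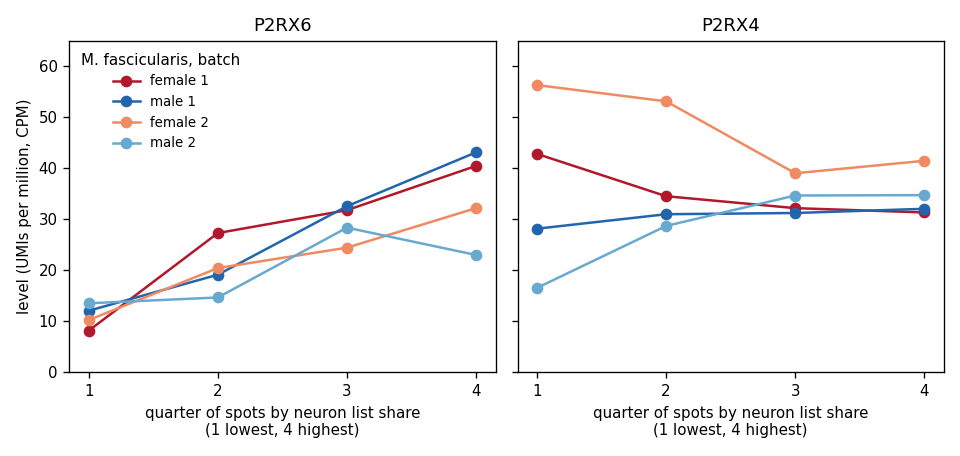
Level of P2RX4 and P2RX6 in CPM across 4 equal bins of spots ordered by the share of UMIs on neuronal genes, with 1 line per M. fascicularis specimen. P2RX6 was lowest in the bottom bin in all 4 specimens; the top bin of P2RX4 was 0.73 to 2.1 times its bottom bin.

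Against the other spots, neuron-rich spots held P2RX6 at 40.3 over 27.9, 43.1 over 26.4, 32.2 over 22.3 and 23.0 over 20.8 CPM in the 4 specimens. It was higher in 4 of 4, with a log2 difference of 0.62 (SE 0.095, adjusted p = 7.4e-05). P2RX4 was at 34.9 ± 4.63 over 34.4 ± 6.23 CPM (SD, n = 4; log2 difference 0.07, SE 0.085, adjusted p = 0.538). P2RX7 differed by -0.38 (adjusted p = 0.437). A call is common in this comparison, in which 40.4% of genes passed in one direction or the other. Neuron-rich spots were also deeper, at a median of 5558.5 UMIs against 1215. With each spot thinned to 500 UMIs, which left 204 P2RX6 UMIs, the P2RX6 difference was 0.45 and was no longer called (adjusted p = 0.217).

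The neuronal list leaned towards large neurons. Among the genes that mark large-fibre neurons, 11 of the 13 tested were called higher in neuron-rich spots and 1 lower, with a median log2 difference of 0.88. Of 21 nociceptor genes tested 2 were called higher and 7 lower, with a median of -0.16. The median over all genes was -0.02, and 40.4% of them were called, a share near that of the nociceptor genes. The nociceptor list shares PRPH with the neuronal list that ranked the spots, and PRPH was not left out of that count. With NEFL and PRPH, a pair of abundant neurofilament genes, left out of the list, P2RX6 differed by 0.17 and was not called (adjusted p = 0.205). Spots were therefore also ranked by each of these lists, a step added after the data were seen. The large-fibre list holds genes of proprioceptors and mechanoreceptors such as PVALB, NEFH and NTRK3, and the nociceptor list holds genes such as SCN11A, TRPV1 and CALCA.

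P2RX6 parted these lists clearly. In large-fibre-rich spots it was at 47.7 over 26.3, 50.5 over 25.2, 39.3 over 20.1 and 33.8 over 17.2 CPM in the 4 specimens, so that every specimen's rich spots were above every specimen's other spots. The log2 difference was 1.04 (SE 0.081, adjusted p = 1.0e-07), a 2.05-fold difference, and stayed between 0.99 and 1.06 when each specimen was left out. In nociceptor-rich spots P2RX6 was lower in 4 of 4 specimens, at 27.2 against 38.4, 27.2 against 39.6, 20.4 against 33.7 and 13.7 against 24.6 CPM. That log2 difference was -0.59 (SE 0.089, adjusted p = 2.0e-04). The share of genes called was 39.5% for large-fibre-rich and 29.7% for nociceptor-rich spots. Both kinds of spot were deeper than the rest, with medians of 3160 against 1313 and 4060.5 against 1222.5 UMIs. Thinned to 500 UMIs, the differences were 0.41 (adjusted p = 0.254) and -0.10 (adjusted p = 0.893).

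P2RX4 followed neither list. It was at 35.2 ± 3.45 over 34.3 ± 6.66 CPM in large-fibre-rich spots (log2 difference 0.09, SE 0.086, adjusted p = 0.443) and at 33.9 ± 5.30 over 34.7 ± 5.31 CPM in nociceptor-rich spots (-0.03, SE 0.076, adjusted p = 0.839). P2RX7 was called lower in nociceptor-rich spots (-1.03, SE 0.35, adjusted p = 0.041), from 20 UMIs there and 62 elsewhere. DESeq2 gave an adjusted p of 0.291. P2RX7 passed the filter on low counts only through the other spots of batch 1, at 2.14 and 2.19 CPM. Nociceptor-rich spots held 0.57 to 1.19 CPM. The test cannot decide here, since the gene entered it only through the side where it was high.

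**Figure D3:**
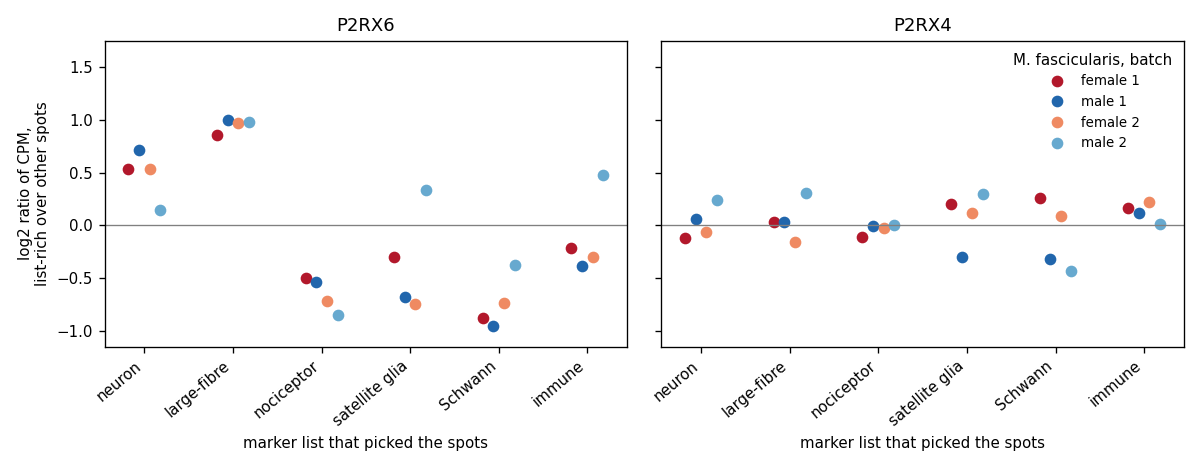
Log2 ratio of CPM of P2RX6 and P2RX4 in the top 25% of spots by each marker list over the other spots; each point is 1 M. fascicularis specimen. The 4 specimens lay at 0.86 to 1.00 for P2RX6 in large-fibre-rich spots and all below 0 in nociceptor-rich spots, while for P2RX4 they lay on both sides of 0 for the neuronal and glial lists.

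The glial lists gave lower P2RX6. In spots rich in myelinating Schwann cell genes it was at 18.9 against 34.8, 18.4 against 35.6, 17.1 against 28.5 and 16.9 against 21.99 CPM, lower in 4 of 4 specimens (log2 difference -0.77, SE 0.20, adjusted p = 0.0041; 34.9% of genes called). The rich spots held 63 P2RX6 UMIs at a median depth of 584 UMIs per spot, against 2163.5 elsewhere, and the call was lost without the male of batch 1 (-0.67, adjusted p = 0.058) and after thinning (-0.58, adjusted p = 0.186). In satellite glia-rich spots P2RX6 was at 28.3 against 34.7, 22.5 against 36.1 and 17.4 against 29.2 CPM in 3 specimens and at 26.3 against 20.9 in the male of batch 2, which went the other way. The difference there was -0.47 (SE 0.14, adjusted p = 0.0086; 31.8% of genes called). It was not called by DESeq2 (-0.42, adjusted p = 0.119), without the male of batch 1 (-0.34, adjusted p = 0.187) or without the female of batch 2 (-0.38, adjusted p = 0.072), and it was 0.30 after thinning (adjusted p = 0.668).

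P2RX7 was called higher in Schwann-rich spots (1.61, SE 0.56, adjusted p = 0.027), at 3.39 ± 1.56 against 1.13 ± 0.41 CPM (SD, n = 4) and higher in 4 of 4 specimens. That rests on 13 UMIs, namely 4, 6, 2 and 1 in the 4 specimens, against 69 elsewhere. DESeq2 gave an adjusted p of 0.054. P2RX7 passed the filter on low counts only through the Schwann-rich sums of batch 1, at 3.98 and 5.26 CPM. No specimen's other spots exceeded 1.61 CPM. The test cannot decide here, since the gene entered it only through the class where it was high. P2RX4 was not called in satellite glia-rich (0.04, adjusted p = 0.818) or Schwann-rich spots (-0.04, adjusted p = 0.890).

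Immune-rich spots were examined because P2X4 and P2X7 are known from macrophages. P2RX4 was at 37.4 ± 7.68 over 33.9 ± 5.15 CPM in them and higher in 4 of 4 specimens, with a log2 difference of 0.16 that did not pass (SE 0.093, adjusted p = 0.270; 16.8% of genes called). P2RX6 differed by -0.18 (SE 0.13, adjusted p = 0.352), and P2RX7 did not pass the filter on low counts. P2RX7 was at 1.55 ± 1.22 against 1.16 ± 0.42 CPM (SD, n = 4), from 18 UMIs in these spots and 64 elsewhere, and was higher in 3 of 4 specimens. With no filter its log2 difference was 0.40 (SE 0.47, adjusted p = 0.732). Neither tested member was called by edgeR or DESeq2, and both had an unadjusted p over 0.05.

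The 4 lists pick overlapping spots; for example, 36.3% of satellite glia-rich spots were also Schwann-rich. With all 4 lists in one fit, P2RX6 remained higher with the neuronal list (0.48, adjusted p = 2.5e-05) and lower with the Schwann list (-0.54, adjusted p = 0.0115). Its difference with the satellite glia list was -0.28 and was not called (adjusted p = 0.118). P2RX7 was again higher with the Schwann list (1.55, adjusted p = 0.0050). That fit kept the genes that had passed the Schwann filter, so the limit given above for P2RX7 holds here too. The differences for the 4 lists were also compared between batches and between sexes, and no member was called in any of these. Between batches 0.0331%, 0.00896%, 0.372% and 0.00897% of genes were called for the neuronal, satellite glia, Schwann and immune lists, and between sexes 0.0413%, 0.0269%, 0.0181% and 0%. For P2RX6 in neuron-rich spots these were -0.26 (SE 0.18, adjusted p = 0.773) for batch and -0.07 (SE 0.20, adjusted p = 1) for sex.

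The neuron-rich spots were next split by the receptors themselves, to see which neurons' genes accompany each one. There were 872 neuron-rich spots with a P2RX6 UMI and 3776 without. Spots with P2RX6 carried more RNA of large-fibre genes and less of nociceptor genes. In the 4 specimens the summed large-fibre list was at 16713 against 12824, 15271 against 10883, 10494 against 8619 and 6960 against 5010 CPM. The summed nociceptor list was at 5919 against 6714, 5933 against 7196, 5581 against 6387 and 6395 against 7372 CPM. The first was higher and the second lower with P2RX6 in 4 of 4 specimens. This split reads the same counts as the ranking by list above and is a second view of them.

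Gene by gene, 6 of the 11 large-fibre genes tested were called higher with P2RX6, with a median log2 difference of 0.30 against -0.0077 over all genes. Here 11.5% of 10510 genes were called, 5.99% higher and 5.46% lower. PVALB, the calcium buffer of proprioceptors, was at 700 against 502 CPM (0.47, SE 0.041, adjusted p = 5.8e-27), and NEFH, the heavy neurofilament, rose by 0.46 (SE 0.034, adjusted p = 5.8e-38). SPP1 (0.28), CALB1 (0.53), CALB2 (0.36) and the transcription factor ETV1 (0.30) were called higher too. NTRK2, the receptor for brain-derived neurotrophic factor, was the 1 large-fibre gene below 0 (-0.22, adjusted p = 0.745).

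Of the 20 nociceptor genes tested, 11 were called lower and 1 higher, with a median of -0.36. SCN11A, the sodium channel Nav1.9, was at 211 against 352 CPM (-0.80, SE 0.051, adjusted p = 9.4e-53). MRGPRX1, an itch receptor, differed by -1.10, OSMR, the oncostatin M receptor, by -0.94, the peptide SST by -0.53 and the heat and capsaicin channel TRPV1 by -0.41. CALCA (-0.30) and TAC1 (-0.28), which encode CGRP and substance P, were also lower, although CALCA was lower in 3 of 4 specimens. GFRA2, GFRA3, CALCB and PRPH made up the other members called lower, at -0.38, -0.35, -0.19 and -0.14.

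Of the genes of other cell types, 4 of 7 Schwann, 4 of 6 fibroblast, 3 of 6 smooth muscle, 3 of 13 immune and 2 of 8 satellite glia genes tested were called lower with P2RX6. The 6 endothelial genes tested had a median of -0.31 and gave no call. Within the neuronal list NEFL (0.29), VSNL1 (0.46), SNAP25 (0.30) and STMN3 (0.22) were higher and GAP43 (-0.23), PRPH and THY1 (-0.14) lower. The spots with P2RX6 were deeper, with a median of 8932 UMIs against 4985. Among the genes with the largest differences, SHH (1.12), a secreted signalling protein, FABP1 (0.88), PHOSPHO1 (0.82), the glutaminase GLS2 (0.81), CNTNAP4 (0.79), RASGRF1 (0.77), RND1 (0.70), CCDC172 (0.68), RGS6 (0.68) and the glutamate receptor GRM8 (0.62) were higher. P2RY14 (-1.32), the receptor for UDP-glucose, PLCL2 (-1.14), MRGPRX1, CHP2 (-0.93), the nicotinic subunit CHRNA3 (-0.91), GPAT2 (-0.90), the prostaglandin D2 receptor PTGDR (-0.88), TRAF3IP2 (-0.88), EFHD1 (-0.87) and AKAP13 (-0.86) were lower.

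**Figure D4:**
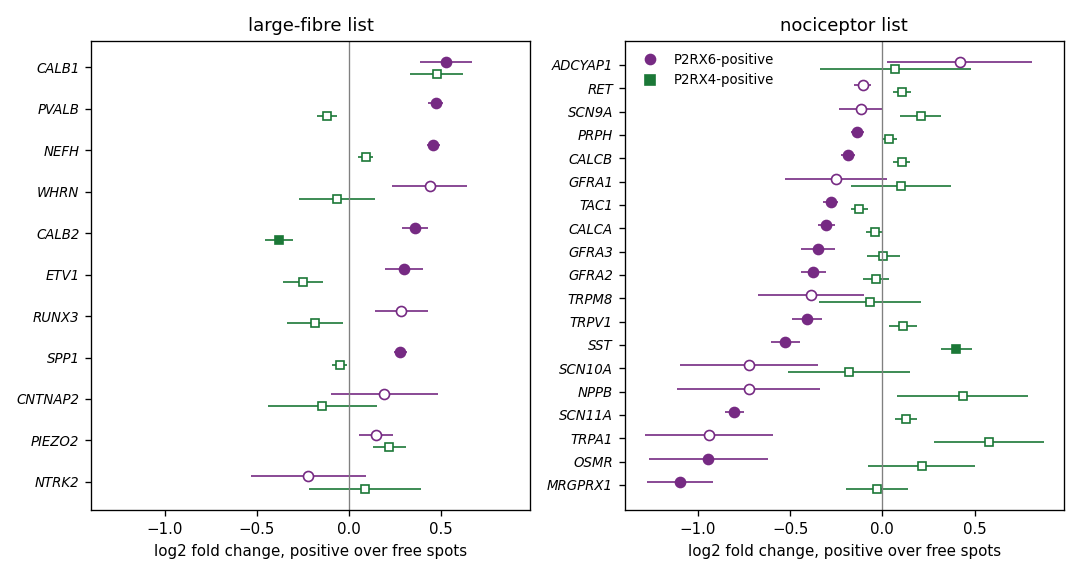
Log2 differences of nociceptor and large-fibre genes in M. fascicularis neuron-rich spots with P2RX6 against those without it, and with P2RX4 against those without it; error bars are standard errors, filled markers have an adjusted p under 0.05, and 1 nociceptor gene is not shown. With P2RX6, PVALB and NEFH lay at 0.47 and 0.46 and SCN11A at -0.80; with P2RX4 these lay at -0.12, 0.09 and 0.13.

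The nociceptor and large-fibre lists were not parted by P2RX4 in this way. The 869 neuron-rich spots with a P2RX4 UMI had a median of 10648 UMIs against 4789 in the 3779 without, and 0.772% of 10618 genes were called, 0.0942% higher and 0.678% lower. Of 20 nociceptor genes SST alone was called (0.40, adjusted p = 0.0021, higher in 2 of 4 specimens), and of 13 large-fibre genes CALB2 alone (-0.38). Neither list gave a call with DESeq2. Over the leave-outs of a specimen 0 to 2 nociceptor genes were called higher, and without the female of batch 2 there were 2 large-fibre genes called higher and 1 nociceptor gene lower. SCN11A was at 0.13 (adjusted p = 0.534) and PVALB at -0.12 (adjusted p = 0.553). The genes called higher included the acid-sensing channel ASIC3 (0.50), PICALM (0.55), PCP4 (0.33) and the neurotrophin receptor NGFR (0.19). Those called lower included the extracellular matrix gene MGP (-0.88) and the myelin genes PRX (-0.59) and PMP2 (-0.56). The lists of other cell types had much the same medians as with P2RX6, at -0.40 for Schwann (2 of 7 called lower), -0.39 for fibroblast (3 of 6) and -0.47 for smooth muscle genes (2 of 6), against -0.38, -0.38 and -0.43 with P2RX6. P2RX4 and P2RX6 were not called in each other's spots: P2RX4 was at 35.9 ± 5.91 over 33.8 ± 5.46 CPM with P2RX6 (0.20, adjusted p = 0.217), and P2RX6 at 34.1 ± 9.07 over 35.0 ± 9.08 CPM with P2RX4 (-0.07, adjusted p = 0.929; SD, n = 4).

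The test of the difference between the 2 receptors used neuron-rich spots with only 1 of them. It set the 607 with P2RX6 and no P2RX4 against the 604 with P2RX4 and no P2RX6. The section medians of depth had medians of 7611.5 and 8867.5 UMIs. Depth was not matched within sections: it was 7420.5 against 10479 UMIs in male section 1 of batch 1 and 5717 against 4322 in male section 1 of batch 2. Called genes made up 5.28% of 9571, 2.76% higher and 2.52% lower with P2RX6. The large-fibre genes PVALB (0.64), NEFH (0.43), SPP1 (0.37), ETV1 (0.64) and CALB2 (0.79) were called higher, 5 of 10 tested, with a list median of 0.44. Of 17 nociceptor genes 11 were called lower, with a list median of -0.35, among them SCN11A at 208 against 391 CPM (-0.99, SE 0.071, adjusted p = 1.4e-28), SST (-1.02), MRGPRX1 (-1.18) and TRPV1 (-0.61). DESeq2 called 5 of these nociceptor genes lower, and 6 were called without the female of batch 2. In this comparison 1 of 7 Schwann genes was called. RND1 (1.29) and CACHD1 (0.81) were among the genes with the largest rise, and GPAT2 (-1.31) and ATP6V1C2 (-1.09) among those with the largest fall.

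The splits by P2RX6 and by P2RX4 were repeated at equal depth, and the comparison between the 2 receptors was not. With each spot thinned to 500 UMIs after it was classed, 27 genes were called with P2RX6; the large-fibre genes still gave 2 calls of 6 tested, with a median of 0.58, and the 12 nociceptor genes tested had a median of -0.15. Thinned before they were classed, spots with P2RX6 had lower medians for both lists and for all genes: -0.52 for the 4 large-fibre genes tested, of which 1 was called lower, -1.11 for the 11 nociceptor genes and -0.59 over all genes.

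P2RX3 was counted only under the P. anubis label, for the most part in the deeper section. The values below are of that section unless the shallower one is named, with exact counting intervals and no test over specimens. P2RX3 was at 139 CPM in nociceptor-rich spots against 69.2 CPM in the other spots, a ratio of 2.01 (95% interval 1.79 to 2.25). In large-fibre-rich spots it was at 79.7 against 114 CPM, a ratio of 0.697 (0.620 to 0.784). In neuron-rich spots its ratio was 0.975 (0.871 to 1.09). Over 4 equal bins of spots from the lowest to the highest neuronal share, with the spots of both sections put together, P2RX3 was at 47.7, 72.7, 115 and 97.7 CPM, so that the top bin was 2.05 times the bottom one and the third bin was the highest. Its ratios in satellite glia-, Schwann- and immune-rich spots were 0.725, 0.530 and 0.630. The shallower section, gave 1.58 (0.640 to 3.70, from 10 and 16 UMIs) in nociceptor-rich and 0.562 (0.165 to 1.53, from 5 and 21 UMIs) in large-fibre-rich spots, intervals that include 1. P2RX6 in the deeper section had ratios of 1.51 (1.25 to 1.82) in neuron-rich, 1.27 (1.06 to 1.52) in large-fibre-rich and 1.05 (0.876 to 1.26) in nociceptor-rich spots. P2RX4 in the deeper section had ratios of 1.54 (1.09 to 2.12) in satellite glia-rich, 1.60 (1.13 to 2.20) in immune-rich and 0.766 (0.599 to 0.978) in neuron-rich spots.

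Neuron-rich spots with P2RX3 (288) and without it (345) differed in some of the genes that mark nociceptors. The CGRP genes CALCA and CALCB had ratios of 2.33 (1.13 to 5.30) and 1.86 (1.78 to 1.94), OSMR 1.59, the sodium channel gene SCN9A 1.31, PRPH 1.30 and the cold channel gene TRPM8 1.32. Not every nociceptor gene went this way, and SST had a ratio of 0.749 (0.564 to 0.996), while GFRA1, GFRA2 and GFRA3 were at 0.931, 1.01 and 0.968. CALCA rests on 34 and 10 UMIs. The large-fibre genes PVALB, CALB2 and RUNX3 had ratios of 0.585, 0.528 and 0.458, ETV1 0.644, SPP1 0.738 and NEFH 0.913, whereas CALB1 was at 1.46. For the summed list nociceptor the ratio was 1.40 (1.37 to 1.43) and for the list large-fibre 0.853 (0.841 to 0.865). Such sums lean on abundant genes, and CALCB alone held 21715 UMIs in the section. The other receptors were near 1, with P2RX6 at 0.965 and P2RX4 at 1.06. In the shallower section, with 10 neuron-rich spots with P2RX3 and 187 without, the list nociceptor was at 1.61 (1.24 to 2.05) and the list large-fibre at 0.775 (0.636 to 0.936). Spots with P2RX3 were deeper, with a median of 13470.5 UMIs against 6372 in the deeper section and 938 against 438 in the shallower. With each spot of the deeper section thinned to 500 UMIs before the split, 19 spots had P2RX3 and 533 had none, and the ratios were 1.01 (0.749 to 1.34) for the list nociceptor and 0.910 (0.733 to 1.12) for the list large-fibre, so that neither contrast was detectable at that depth. The spots with P2RX6 in the deeper section held the list nociceptor at 1.10 and the list large-fibre at 1.06 times the level of spots without it. The nociceptor value lies on the other side of 1 from M. fascicularis, where that list was lower with P2RX6 in 4 of 4 specimens; the difference between the labels was not tested.

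**Figure D5:**
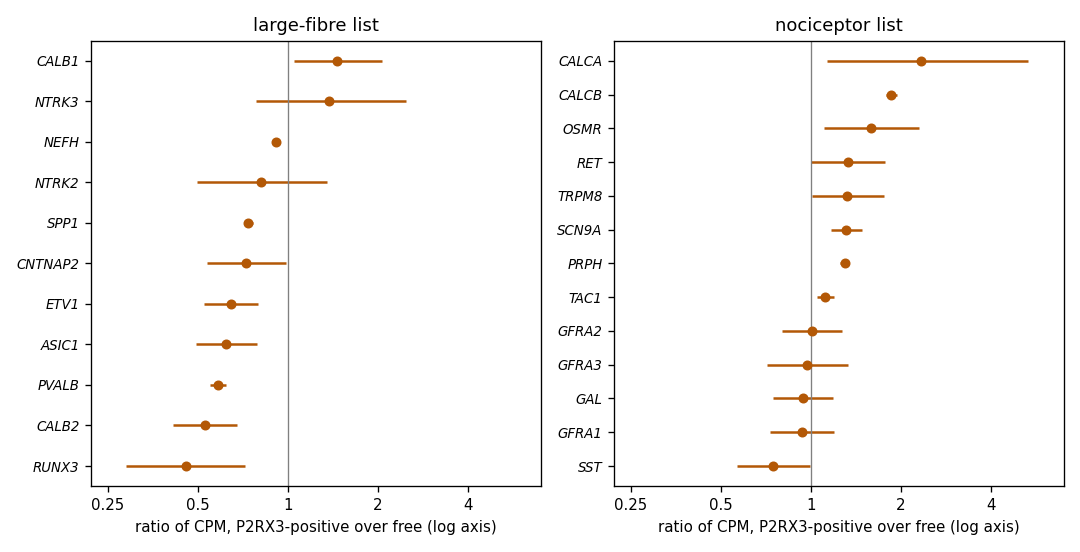
Ratio of CPM in neuron-rich spots with P2RX3 to those without it, in the deeper section labelled P. anubis, for nociceptor and large-fibre genes with at least 40 UMIs, on a log axis; bars are exact 95% counting intervals, and 1 nociceptor gene is not shown. CALCA and CALCB lay at 2.33 and 1.86, and PVALB and CALB2 at 0.585 and 0.528.

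Across the spots of the 15 M. fascicularis sections, the genes whose counts went most closely with P2RX6 were ALDOC (median Pearson's r 0.151), SNAP25 (0.151), FBXO2 (0.150) and TMEM130 (0.149), beside 1 feature with no symbol. For P2RX4 they were THY1 (0.0988), VAMP1 (0.0949) and MAP1A, again beside 1 unnamed feature, and P2RX4 and P2RX6 went with each other at 0.0414. For P2RX3, in 1 section, the deeper one labelled P. anubis, they were CALCB (0.333), CYSTM1 (0.303), OLFM1 (0.300), AKR1B10 (0.288) and SYNPR (0.285). For P2RX6 in that section they were FXYD5 (0.193), FABP7 (0.185), UQCRQ (0.178), PPP2R2B (0.175) and VAT1L (0.174), of which FABP7 is in the satellite glia list. For P2RX4 there they were RPL3 (0.109), TMED3 (0.107), ADIPOR1 (0.104), GCN1 (0.1025) and NDUFB2 (0.101). These values are weak, come from spots that share a library and its depth, and serve as a description.

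A list of 34 other genes of purine signalling, of which 25 had a symbol in M. fascicularis, was read in the same comparisons. It held P2RX1, which is outside the set, P2Y and adenosine receptors and pannexins. Nucleotidases, other purine enzymes and nucleotide or nucleoside transporters made up the rest. Between batches 3 of 19 tested were called, where 2.88% of all genes were, and the list's median was -0.68 against -0.01 over all genes. ENTPD2 (1.46), an ectonucleotidase that hydrolyses ATP, rose, and 2 genes fell, the microglial and platelet receptor P2RY12 (-2.51) and the phosphatase ALPL (-1.32). In neuron-rich spots SLC29A2 (0.96), a nucleoside transporter, and ENTPD6 (0.62) were higher, and ENPP2 (-1.10), SLC29A1 (-0.67) and ALPL (-0.34) were lower, 5 of 17 tested where 40.4% of all genes were called. In satellite glia-rich spots 4 of 16 were higher, ENPP2 (0.99), P2RY12 (0.77), SLC29A1 (0.73) and ALPL (0.56), and 3 lower, P2RY14 (-0.71), ENTPD3 (-0.54) and ENTPD6 (-0.37), beside 31.8% of all genes. In immune-rich spots 3 of 15 were higher, ENPP2 (0.77), P2RY12 (0.62) and ALPL (0.49), and 2 lower, ENTPD6 (-0.40) and ENTPD3 (-0.39), beside 16.8%. P2RY14 was parted by the neuronal lists in the opposite way to P2RX6, at 1.16 in nociceptor-rich and -1.45 in large-fibre-rich spots. In large-fibre-rich spots SLC29A2 (1.39) and ENTPD6 (0.76) were higher, as P2RX6 was, and 3 of 17 genes were lower, beside 39.5% of all genes called. In nociceptor-rich spots ADK (0.37) and ENTPD3 (0.24) were higher with P2RY14, and 4 of 17 genes were lower, beside 29.7%. In Schwann-rich spots ENPP2 (2.29) and SLC29A1 (0.70) were higher and the ectonucleotidases ENTPD3 (-0.67) and ENTPD6 (-0.67) lower, 4 of 15 tested beside 34.9%.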

How the data were processed

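Visium UMI counts per spot and the authors' tables of spatial autocorrelation were used. Counts are deposited raw; Space Ranger 2.0.0 was used for 12 sections and 2.1.0 for 7, per the file headers, and in M. fascicularis the version goes with the batch. The submitters' processing notes name the build Mmul_10 without a role. Moran's I, a score, and its p-value and adjusted p-value were taken from the authors' deposited tables; a signal column of those deposited tables, the mean UMI count per spot scaled to the median total, was not used; how the tables were computed is not given in the sources used here.

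The members, lists and tests were chosen with earlier results of these data known. Samples were mapped by labels. Counts were summed per specimen and class and tested with edgeR 4.0.16 (TMM factors, filterByExpr, quasi-likelihood test, limma 3.58.1, R 4.3.3), Benjamini-Hochberg adjusted over all genes tested; DESeq2 1.42.0 was an alternative. P-values rest on sums of the 4 specimens, with a spread that edgeR estimates partly from all genes together. A small p-value therefore does not show that all 4 specimens went the same way. Nothing states that the specimens are separate animals. The fits were tested on simulated data. Depth per section is given with the results. Depths of M. fascicularis spot classes are medians over sections of each section's median, unless a section is named. Intervals cover counting error only (exact, 95%).

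A planned split of M. fascicularis neuron-rich spots by P2RX3 could not be run, as P2RX3 has no symbol in that annotation; the splits by P2RX6 and P2RX4 were added after the data were seen. Named genes are the members, list genes, and, by the rule written for P2RX3, the 10 symbols with the largest difference each way among called genes with the same direction in 4 specimens and a mean of at least 5 CPM; for the other splits some of these are named. Some genes are counted in lists but not reported here by name. Sections shared 56 to 2383 spot barcodes in 171 pairs of sections, which name positions on the slide. No pair of sections of one group agreed within sampling noise (lowest chi-square per degree of freedom 3.93). Alternatives were DESeq2, filters, total-UMI scaling, spot depth, thinning, class size, sections as samples, joint fits and leaving out sections or specimens.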

Additional observations from a re-analysis of the deposited data

Results flagged for a closer look

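P2RX4 stood apart in 1 female section of batch 2, section 2, at 50.8 CPM, where the other 3 sections of that specimen lay between 38.1 and 40.2 CPM. P2RX7 stood apart in section 1 of the female of batch 1, at 4.97 CPM from 8 UMIs. In each, the gap to the nearest section exceeded Dixon's 95% limit for 4 samples (0.829 of the range). Over the 30 groups of values examined this way, chance flags about 1 in 20.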

How the results depend on the processing

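P2RX6 stayed higher in large-fibre-rich and lower in nociceptor-rich spots, and called, in each leave-out of a specimen and with DESeq2. Counts of members called changed as follows. In neuron-rich spots 1 became 0 after thinning to 500 UMIs and with the list without NEFL and PRPH. In satellite glia-rich spots 1 became 0 with DESeq2, after thinning and with 4 lists fitted together, and was 0 to 1 with a specimen or section left out. In Schwann-rich spots 2 became 1 with DESeq2, with no filter on low counts and at 1000 UMIs per spot, 0 in the top 10% of spots and after thinning, and 0 to 2 with a specimen or section left out. In nociceptor-rich spots 2 became 1 with DESeq2 and 0 after thinning, and was 1 to 2 without single specimens. In large-fibre-rich spots 1 became 0 after thinning.

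In the P2RX6 split the 1204 genes called became 414 with DESeq2, 3308 over all tissue spots, 128 and 27 with thinning before and after classing, and 538 to 1308 without single specimens. Large-fibre genes called higher went from 6 to 0 and 2 with thinning before and after classing. Nociceptor genes called lower went from 11 to 7 over all tissue spots and to 3 and 0 with thinning. In the P2RX4 split 82 became 17 with DESeq2, 1782 over all tissue spots, 153 and 9 with thinning, and 26 to 120 without single specimens. Between P2RX6-only and P2RX4-only spots 505 became 151 with DESeq2 and 187 to 581 without single specimens; nociceptor genes called lower went from 11 to 5 with DESeq2 and to 6 to 12 without single specimens. Thinning removes most UMIs and so leaves fewer genes to test. Over all genes, calls ranged from 115 to 4448 for batch (main 364), 0 to 67 for sex (0), and fell from 4891 to 1493 (neuron-rich), 3552 to 140 (satellite glia-rich), 3846 to 899 (Schwann-rich), 1869 to 70 (immune-rich), 3553 to 858 (nociceptor-rich) and 4694 to 1282 (large-fibre-rich) after thinning.

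Directions turned mostly where differences were near 0. P2RX4 was at -0.014 in neuron-rich and -0.022 in satellite glia-rich spots with 4 lists fitted together, at -0.016 in satellite glia-rich and 0.0032 in Schwann-rich spots at 1000 UMIs per spot, and after thinning at 0.057 in Schwann-rich spots, -0.018 in immune-rich spots and -0.20 in spots with P2RX6 (thinned after classing). P2RX6 after thinning was at 0.30 in satellite glia-rich and 0.15 in immune-rich spots, at 0.019 in immune-rich spots with 4 lists, and at 0.20 in spots with P2RX4 over all tissue spots. With a specimen or section left out P2RX4 ranged from -0.018 to 0.19 in satellite glia-rich and -0.16 to 0.079 in Schwann-rich spots, P2RX7 from -0.60 to 0.086 in neuron-rich spots and from -0.065 to 0.28 between sexes, and P2RX6 from -0.12 to 0.0056 in spots with P2RX4. The cause of these turns was not tested. Scaled to all features, P2RX4 was at 35.2 CPM in M. fascicularis and P2RX7 at 3.99 CPM under the P. anubis label. With Moran's I of at least 0.1 required, the sections called fell from 4 to 0 for P2RX6 in M. fascicularis and from 1 to 0 for P2RX3 under the P. anubis label.

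Section numbers were not used to pair samples in the main fits. Same-numbered sections of different specimens correlated at a median of 0.021, and 8 of 24 pairs were over 0.1. Pairs with other numbers had a median of -0.0063, and 11 of 72 were over 0.1. With sections as samples, P2RX4 was called between batches without the replicate block (0.34, adjusted p = 0.016) and with it (0.36, adjusted p = 0.023), so 1 member was called in both, beside 4345 of 10670 and 4448 of 11264 genes; with the section as replicate block, 1 member was called in Schwann-rich spots, beside 4674 of 9290 genes. The split by P2RX3 planned for M. fascicularis was not run. Depth limits P2RX2, P2RX5 and P2RX7, and most values under the M. mulatta label.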
